A study of Mus musculus with 9 samples.

Results

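Prkcd neurons of the mouse central amygdala were divided by Nr2f2, the gene of the nuclear receptor COUP-TFII, and the RNA of the resulting classes was compared. Of 829 deposited cells, 810 were classed as inhibitory neurons, being positive for Gad1, Gad2 or Slc32a1 and negative for Slc17a6 and Slc17a7. Of these 343 were positive for Prkcd, and they comprised 47 cells positive and 296 cells negative for Nr2f2. A cell was positive for a gene at 1 or more counts per 10000 of its gene counts, which equals 100 CPM (counts per 1e6 gene counts). The inhibitory neurons without Prkcd, of which 69 were Nr2f2-positive and 398 Nr2f2-negative, served as the reference for differences between the 2 Nr2f2 classes.

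The series measured single-cell RNA of wild-type B6 mice in 9 samples of 1 group, with no treatment and no age stated. Cells were microdissected from acute slices, dissociated and pooled, so both classes come from the same samples and the comparison is within each sample. No label says that the samples are separate animals, and the p-values cover only the scatter among them, which may be technical. The Prkcd neurons were defined by RNA of 1 time, not by lineage or protein.

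COUP-TFII is a nuclear receptor that binds DNA and can repress or activate genes. In the developing forebrain it is known from cells of the caudal ganglionic eminence, including those that move toward the amygdala. Prkcd encodes protein kinase C delta and marks a large population of the lateral central amygdala that has been studied in fear, pain and feeding.

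Among the genes outside the class rule, only Nts, the neurotensin precursor gene, passed the test between the classes, and it was lower in the Nr2f2-positive neurons. The 250 bases before its transcription start are shown because it carries this result, with the start lying just after the last letter. The sequence is from RefSeq on GRCm38.p6, at chr10:102490419-102490668 on the minus strand, read along the gene. Capitals mark an AP-1 site, TGAGTCA, at bases 207 to 201 before the start and a TATATATA run at bases 45 to 38.
Nts: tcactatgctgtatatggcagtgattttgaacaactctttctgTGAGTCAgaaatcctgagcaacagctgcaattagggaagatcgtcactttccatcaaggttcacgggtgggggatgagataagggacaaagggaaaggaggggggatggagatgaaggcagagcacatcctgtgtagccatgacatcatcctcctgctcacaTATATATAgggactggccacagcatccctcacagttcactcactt
The half-site bound by COUP-TFII and other nuclear receptors, AGGTCA, was searched on both strands and these letters are not in the window. Among 32851 RefSeq promoter windows of the same length, 14.0% held AGGTCA, 4.46% held TGAGTCA and 0.737% held TATATATA on either strand. The TATATATA run reads the same on both strands, and the TGAGTCA and TATATATA matches do not overlap. None of the 3 motifs was found in the windows of Rasgrf1, Tshz2 or Wfs1, which are described further on.

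The Nr2f2-positive class held 2, 8, 7, 6, 3, 4, 7, 5 and 5 cells in samples 1 to 9. The Nr2f2-negative class held 37, 40, 39, 22, 31, 33, 32, 32 and 30 cells. Nr2f2-positive cells made up 13.8% ± 4.94 (SD, n = 9) of the Prkcd neurons, between 5.13% and 21.4% per sample. They made up 15.0% ± 6.0 (SD, n = 9) of the inhibitory neurons without Prkcd. The share was below that of the other neurons in 6 of 9 samples by log2 odds ratio, which had a mean of -0.11 ± 0.75 (SD), a difference smaller than the spread.

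Nr2f2 chose the classes, so its values are a description. In single positive cells Nr2f2 ran from 105 to 865 CPM with a median of 210 CPM, and in Nr2f2-positive cells without Prkcd the median was 319 CPM and the highest 2182 CPM. Of the 296 negative cells, 229 had no Nr2f2 count and 67 had at least 1. The cells nearest to the threshold had 105 and 107 CPM inside it and 99.5 and 96.2 CPM outside it. In all, 10 positive cells lay under 150 CPM and 16 negative cells at 50 CPM or more. Sample 1, with 2 positive cells, did not enter the fit, which required 3 cells in each class, and the samples below are samples 2 to 9.

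In these 8 samples the summed Nr2f2 level was 177, 249 and 439 CPM (lowest, median and highest) in the positive class and 2.34, 6.84 and 11.2 CPM in the negative class. The level of Prkcd, also part of the rule, was 440, 699 and 1092 CPM in the positive class and 498, 734 and 987 CPM in the negative class. The Prkcd ranges overlapped, and the level was higher in the positive class in 5 of 8 samples. Gad1 and Gad2 encode the enzymes that make GABA and were used to call cells inhibitory. Gad1 was 515, 800 and 1049 CPM in the positive and 426, 486 and 691 CPM in the negative class, and higher in the positive class in 8 of 8 samples. Gad2 was 264, 468 and 683 CPM in the positive and 547, 638 and 743 CPM in the negative class, and lower in the positive class in 7 of 8 samples.

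**Figure D1:**
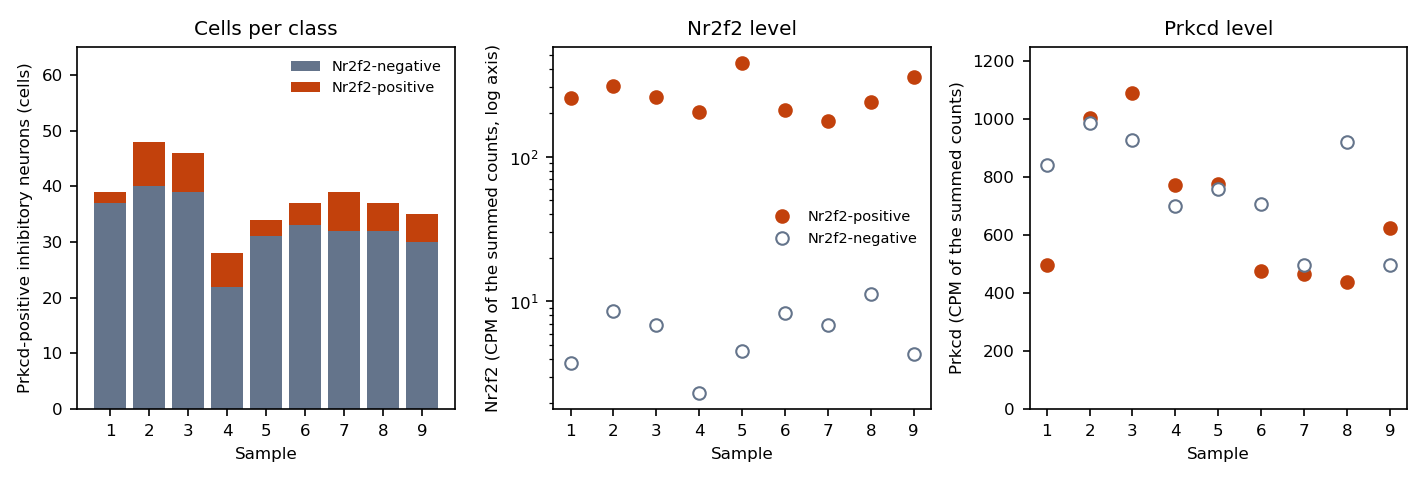
Prkcd-positive inhibitory neurons by sample: number of cells per Nr2f2 class (bars), and the Nr2f2 level (log axis) and Prkcd level in CPM of the summed counts (points, 1 per class and sample). Nr2f2-positive cells numbered 2 to 8 per sample, and the Prkcd levels of the classes overlapped.

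The classes differed slightly in depth. The median gene counts per cell were 82236, 117939 and 234846 (lowest, median and highest over 8 samples) in the positive class and 89507, 117697 and 235482 in the negative class. The mean log2 ratio was -0.13 ± 0.18 (SD, n = 8; exact two-sided sign-flip permutation p = 0.0859, adjusted over 3 measures 0.0859). Detected genes per cell were lower in the positive class in 7 of 8 samples, with a mean log2 ratio of -0.09 ± 0.08 (SD; exact permutation p = 0.0156, adjusted 0.0469). With counts thinned to 50000 per cell the ratio was -0.08 ± 0.08 (SD; exact permutation p = 0.0234). Gene counts per spike-in count were lower in 6 of 8 samples, with a mean log2 ratio of -0.18 ± 0.18 (SD; exact permutation p = 0.0313, adjusted 0.0469). The smallest p that 8 samples allow is 0.00781.

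Of 9154 genes tested besides the rule genes, 0 were higher (0.0%) and 1 was lower (0.0109%) in the Nr2f2-positive neurons at an adjusted p under 0.05 (edgeR quasi-likelihood test, sample as block, Benjamini-Hochberg). At an unadjusted p under 0.05 there were 34 higher (0.371%) and 873 lower (9.54%). DESeq2, with its own filter, called 23 higher (0.201%) and 630 lower (5.51%) of 11431 genes. The median log2 fold change over all tested genes was -0.50, with 81.2% of genes below 0, so every fold below is to be read against this shift. With equal cell numbers drawn per class the median was -0.07, with 54.6% of genes below 0, and at an unadjusted p under 0.05 there were 78 higher (1.17%) and 131 lower (1.96%). With median-of-ratios scaling the median was -0.40. Without the sample block 1 gene was higher (0.0109%) and 9 were lower (0.0983%), and with 1 or more cells per class 10 of 9115 were lower (0.11%). Calling Prkcd and Nr2f2 positive at 1 count gave 2 higher (0.0189%) and 14 lower (0.132%) of 10570 genes. The positive class summed 3 to 8 cells per sample and the negative class 22 to 40. Over the same 9154 genes without the sample block the median was -0.06, with 55.9% of genes below 0. It was -0.15 over the 4167 genes with a mean of at least 50 CPM and -0.09 with positivity at 1 count. The draw with equal cell numbers tested 6682 genes, and the cause of the shift was not tested. On simulated counts with the sizes of these sums, 14% of genes changed 2-fold and 51% of genes changed 4-fold were recovered. The changed genes were drawn from those above a floor of mean CPM, and no sample effect was simulated. These rates therefore do not cover genes with few counts.

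Nts, a peptide precursor linked to feeding and reward, had 0 CPM in the positive class in 5 of 8 samples. In the other three it was 2.96 CPM in sample 2, 1.32 CPM in sample 3 and 122 CPM in sample 5. The negative class had 0.586, 301 and 455 CPM (lowest, median and highest), with the low values in samples 4 and 8. The positive class was below the negative in each of the 8 samples, though the ranges overlapped across samples. The mean was 15.8 CPM in the positive and 268 CPM in the negative class. In the fit Nts fell by 6.87 ± 0.95 (SE) on the log2 scale, with an edgeR adjusted p of 0.00685.

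The Nts difference rested on few cells. In the positive class 1 of 47 cells was Nts-positive (2.13%, 95% exact binomial interval 0.0539% to 11.3%), and that cell, in sample 5, held 81 of the 85 Nts counts of the class. In the negative class 27 of 296 cells were Nts-positive (9.12%, interval 6.10% to 13.0%), and they held 99.5% of the Nts counts. These intervals overlap, and they cover counting error only. The call was lost without sample 2 (edgeR adjusted p = 0.0656), sample 3 (0.0670) or sample 6 (0.0525), and without sample 5 Nts did not pass the filter on low counts. It was also lost without the sample block (-4.10, adjusted p = 0.664), and Nts did not pass the filter with equal cell numbers, thinned counts or 5 or more cells per class. Within the 3 animal numbers Nts was 0, 48.5 and 0.535 CPM in the positive and 382, 263 and 399 CPM in the negative class. Within the 3 date fields it was 1.87, 39.7 and 0 CPM in the positive and 519, 255 and 230 CPM in the negative class. Nts was lower in the positive class within each of them, and sums per animal number or date field did not pass (adjusted p = 0.830 and 0.901).

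The 27 Nts-positive cells without Nr2f2 often carried other peptide genes. Of them 22 were positive for Tac2, 20 for Crh, 17 for Sst and 21 for Pdyn, while 3 were positive for Cartpt. Among the genes described below, 22 of the 27 cells were positive for Pcp4, 17 for Nefl and 8 for Nefm. The lower values of these genes are thus partly carried by the same cells. Cells positive for any of Sst, Crh, Tac2 or Nts were 4 of 47 in the positive class (8.51%, interval 2.37% to 20.4%) and 50 of 296 in the negative class (16.9%, interval 12.8% to 21.7%). These intervals overlap as well.

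The other peptide genes of this group had lower values in the Nr2f2-positive class without passing. Crh, corticotropin-releasing hormone, was 0 CPM in 7 of 8 samples of the positive class and 54.9 CPM in sample 4, against 0.293, 107 and 186 CPM in the negative class. Its mean was 6.86 CPM against 99.8 CPM, and its log2 fold change in the fit was -7.61 ± 1.66 (SE; edgeR adjusted p = 0.173). A single cell held 48 of the 49 Crh counts of the positive class, and without sample 4 the value was -11.29 with an adjusted p of 0.0244. Sample 4 is the 1 sample in which Crh was higher in the positive class. Leaving out 1 sample at a time, Crh passed in only 1 of 8 fits (edgeR adjusted p up to 0.376). Pdyn, the dynorphin precursor gene, was lower in all 8 samples, at 0, 1.88 and 62.4 CPM against 5.78, 97.2 and 211 CPM, with -5.15 ± 1.05 (SE; adjusted p = 0.132). Without sample 9, which holds the 62.4 CPM, Pdyn passed at -5.97 (adjusted p = 0.0469), the only 1 of 8 such fits (edgeR adjusted p up to 0.347). Sst, somatostatin, was 1.47, 5.02 and 38.8 CPM against 2.25, 77.7 and 230 CPM, with -3.35 ± 0.85 (SE; adjusted p = 0.215). Tac2, the neurokinin B precursor gene, was positive in 1 of 47 and 28 of 296 cells and did not pass the filter on low counts.

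Penk and Cartpt, positive in most Prkcd neurons, did not pass the test. Penk, the enkephalin precursor gene, was positive in 85.1% of Nr2f2-positive and 80.4% of Nr2f2-negative cells. Its summed level was 615, 1413 and 3991 CPM against 1644, 2242 and 3180 CPM, with a log2 fold change of -0.55 ± 0.25 (SE; edgeR adjusted p = 0.484). Cartpt, the CART precursor gene, was positive in 55.3% and 60.1% of cells, at -0.23 ± 0.72 (SE; adjusted p = 0.925). Its level ranged from 90.5 to 3257 CPM in the positive and from 665 to 2208 CPM in the negative class, and it was higher in 4 of 8 samples and lower in 4. The direction of both flipped under some settings.

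The plot of single genes by sample places these peptides beside the neurofilament and receptor genes described next. Most lines fall steeply for Nts, Crh and Pdyn, and those for Penk and Cartpt run both ways.

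**Figure D2:**
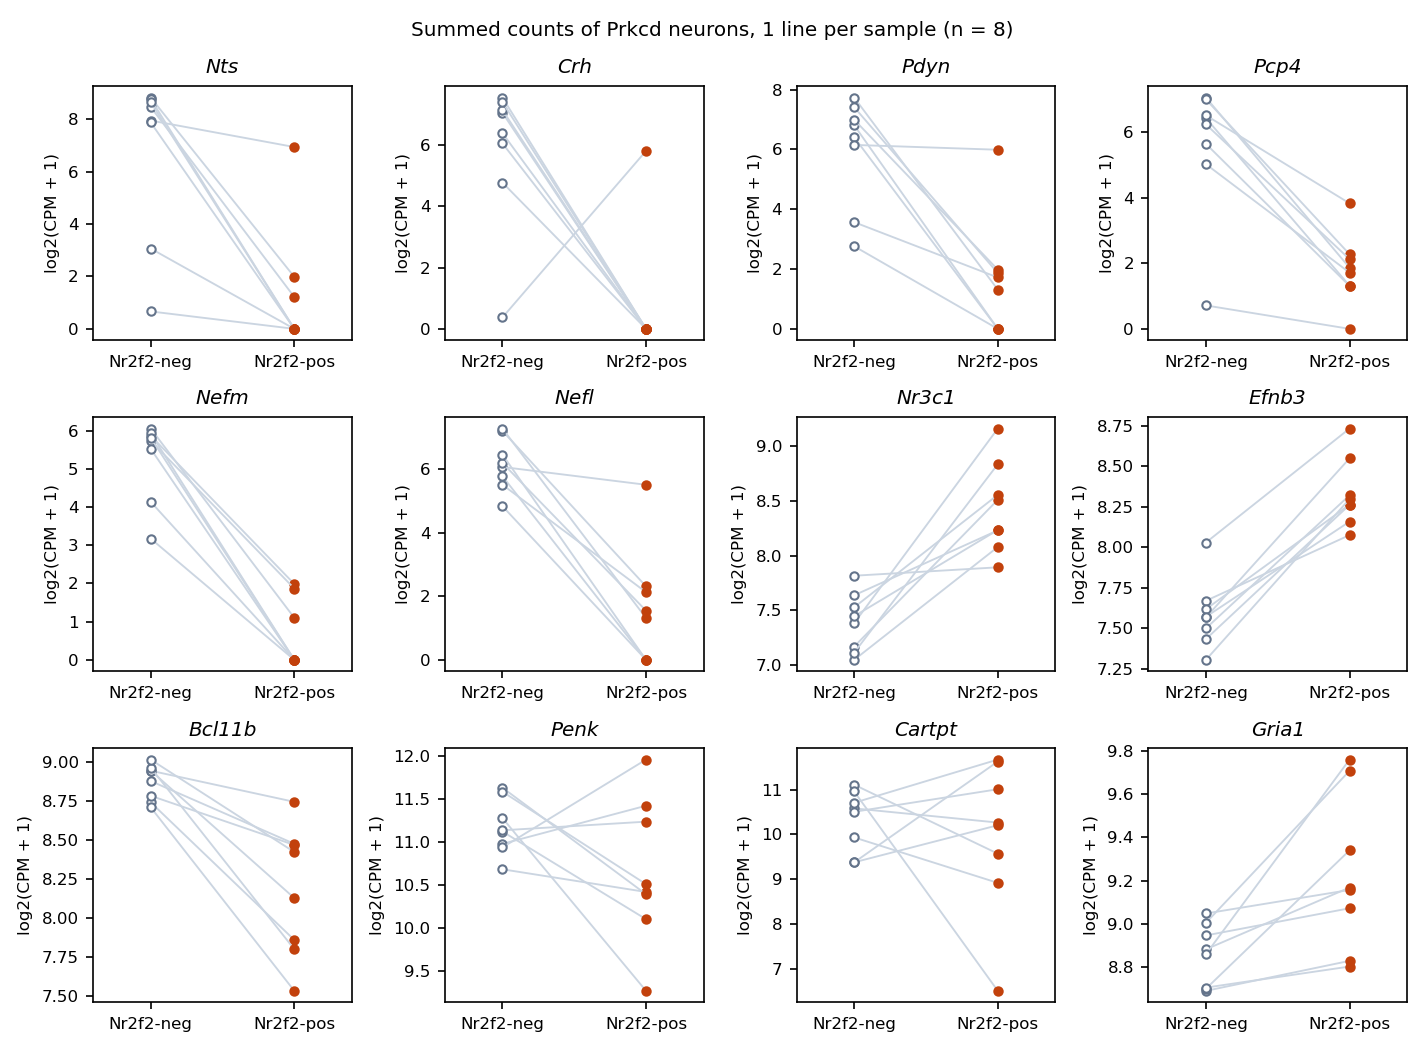
Level of 12 genes as log2(CPM + 1) of the summed counts, Nr2f2-negative and Nr2f2-positive Prkcd neurons joined by a line for each of 8 samples. Nr3c1 and Efnb3 do not overlap between the classes, and Crh rises in 1 sample, sample 4.

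Nefm and Nefl encode neurofilament subunits, found in large-calibre axons. Nefm was 0 CPM in 5 of 8 samples and at most 2.96 CPM in the positive class, against 8.02, 53.8 and 65.4 CPM in the negative class, so the classes did not overlap. Its log2 fold change was -6.07 ± 1.10 (SE; edgeR adjusted p = 0.069). Nefl was 0, 1.71 and 44.6 CPM against 27.6, 69.3 and 154 CPM, and lower in 8 of 8 samples, at -5.19 ± 0.98 (SE; adjusted p = 0.0824). In single cells 0 of 47 Nr2f2-positive cells were Nefm-positive (interval 0% to 7.55%), against 23 of 296 cells (7.77%, interval 4.99% to 11.4%). These intervals overlap. Stmn2, a microtubule regulator and a member of the neuron list, was lower in 8 of 8 samples at 2.59, 67.0 and 135 CPM against 110, 224 and 342 CPM, with -2.11 ± 0.55 (SE; adjusted p = 0.216).

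Pcp4, a small calmodulin-binding protein gene, was at most 13.3 CPM in the positive class and 0.642, 80.2 and 133 CPM in the negative class. It was lower in 8 of 8 samples at -4.61 ± 0.78 (SE; edgeR adjusted p = 0.0523), and 0 of 47 against 34 of 296 cells were positive. Rasgrf1, a calcium-regulated exchange factor for Ras, was 0, 0.572 and 5.77 CPM against 3.85, 37.9 and 112 CPM, at -5.58 ± 1.03 (SE; adjusted p = 0.0733). These 8 samples leave out sample 1, where 1 Nr2f2-positive cell held 32 of the 38 Rasgrf1 counts of its class. With positivity at 1 count the Rasgrf1 value was -0.67 (adjusted p = 0.158). Fam176b had 5.92 CPM in sample 2 and 0 CPM in the other 7 samples of the positive class, against 26.8, 43.1 and 69.6 CPM. Its log2 fold change was -7.27 ± 1.32 (SE; adjusted p = 0.069), and the classes did not overlap. Pxmp3, a peroxisome assembly gene, was 0 CPM in 6 of 8 samples against 12.1, 43.9 and 61.5 CPM, at -6.29 ± 1.31 (SE; adjusted p = 0.138).

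For a pair of genes with very few counts in the positive class only the ratio of summed counts is given. Pfkfb3, a regulator of glycolysis, had 1 count in the positive class and its CPM over the summed class was 91.8 times as high in the negative class (95% counting interval 16.4 to 3632). Topbp1, a DNA damage response gene, had 2 counts and was 27.5 times as high (interval 7.56 to 228). These intervals take each count as independent, while the counts come from few cells. In single cells 0 of 47 Nr2f2-positive cells were positive for either gene (interval 0% to 7.55%). Of the 296 Nr2f2-negative cells 12 were Pfkfb3-positive (4.05%, interval 2.11% to 6.97%) and 10 Topbp1-positive (3.38%, interval 1.63% to 6.13%). The intervals of the cell shares overlap. Both genes were lower in 8 of 8 samples without overlap. Malat1, a nuclear long RNA, was 28205 to 33859 CPM against 30610 to 36314 CPM and lower in 8 of 8 samples, at -0.18 ± 0.04 (SE; edgeR adjusted p = 0.156), which lies above the median of all genes.

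The classes did not overlap over samples in 21 genes on the lower side (0.229% of the 9154) and in 3 on the higher side (0.0328%). In every one of the 8 samples 156 genes were lower (1.7%) and 20 were higher (0.218%). The rule for naming genes required the same direction in all 8 samples of Pdyn, Nefm, Nefl, Pcp4, Rasgrf1, Fam176b, Pxmp3, Pfkfb3, Topbp1, Malat1 and Bcl11b. It required the same of the genes named on the higher side. For these genes that direction was fixed by the choice and adds no support.

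Nr3c1, which encodes the glucocorticoid receptor and is the nuclear receptor that mediates stress hormone signals, had the smallest p on the higher side. In samples 2 to 9 it was 237, 364, 300, 269, 456, 376, 572 and 300 CPM in the positive class. In the negative class it was 224, 143, 198, 131, 137, 184, 166 and 173 CPM, so the classes did not overlap. The log2 fold change was 1.01 ± 0.21 (SE) with an edgeR adjusted p of 0.136, so it did not pass. It passed without the sample block (1.03, adjusted p = 0.0171) and with DESeq2 (1.12, adjusted p = 0.000336). Pcp4, Nefm, Fam176b, Rasgrf1, Pfkfb3 and Topbp1, named on the lower side, also passed in both. Other named genes passed with DESeq2 too, with adjusted p of 5.02e-05 for Efnb3, 1.28e-07 for Nefl and 6.91e-07 for Pdyn. In single cells 78.7% of the positive class (interval 64.3% to 89.3%) and 53.7% of the negative class (interval 47.9% to 59.5%) were Nr3c1-positive. These intervals pool cells over samples and cover counting error only, so they are no test between the classes. With equal cell numbers the value was 1.23, without the Sst, Crh, Tac2 or Nts cells it was 1.04, and with positivity at 1 count it was 0.47.

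Efnb3, an ephrin ligand of axon guidance, was 269, 310 and 425 CPM in the positive and 157, 189 and 260 CPM in the negative class, at 0.71 ± 0.17 (SE; edgeR adjusted p = 0.190). Mrpl30, a mitochondrial ribosomal protein gene, was 379, 416 and 527 CPM against 185, 308 and 336 CPM, at 0.56 ± 0.16 (SE; adjusted p = 0.265). Neither gene overlapped between the classes. Hdac9, a class II histone deacetylase gene, was 53.0, 103 and 198 CPM against 25.3, 42.4 and 62.6 CPM, higher in 8 of 8 samples at 1.29 ± 0.41 (SE; adjusted p = 0.351).

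The other 8 genes named on the higher side were Nrgn, Pcsk1n, Wdfy3, mt-Nd4, Arl6ip4, Gria1, Lass4 and Nrsn2. They had log2 fold changes between 0.21 and 0.95 and edgeR adjusted p-values of 0.408 or more. Each was higher in 8 of 8 samples, as the rule for naming genes required. Gria1, an AMPA receptor subunit gene, was 445, 572 and 867 CPM against 412, 467 and 528 CPM, at 0.33 ± 0.14 (SE; adjusted p = 0.472). Nrgn, a calmodulin-binding postsynaptic gene, was 469, 641 and 795 CPM against 434, 473 and 607 CPM, at 0.36 ± 0.12 (SE; adjusted p = 0.408).

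**Figure D3:**
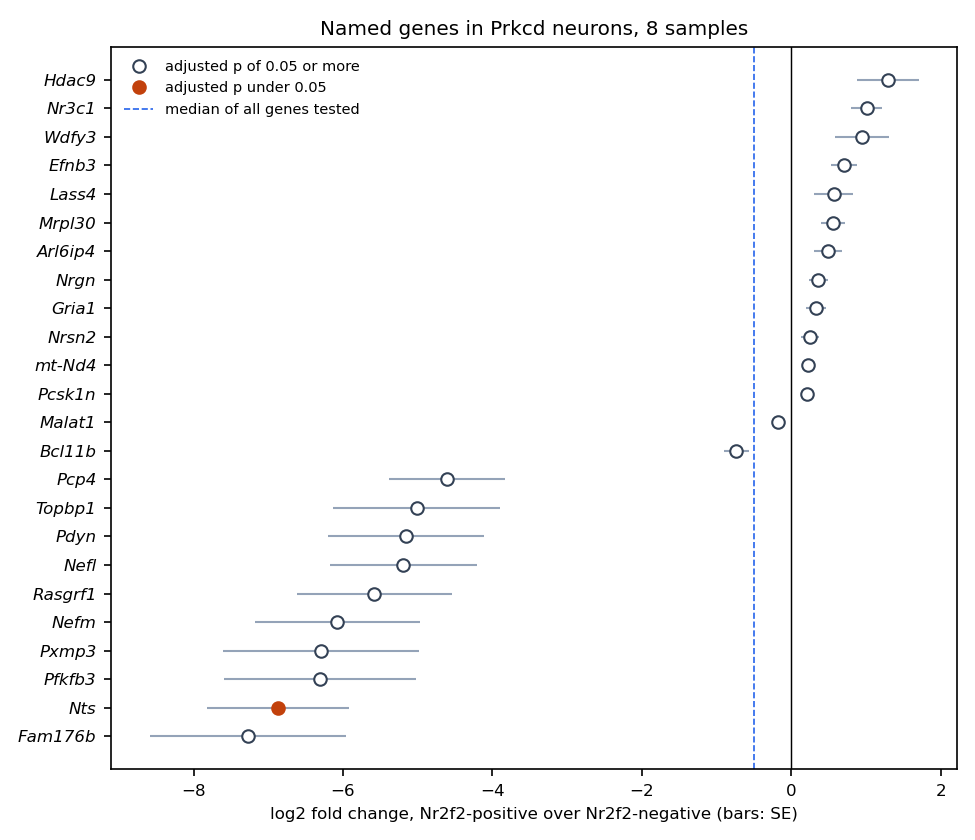
Log2 fold changes (points) with standard errors (bars) of the genes named by the rule, Nr2f2-positive over Nr2f2-negative Prkcd neurons. Nts, at -6.87, is the filled point with an adjusted p under 0.05, and the dashed line is the median of all genes, -0.50.

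Among transcription factors, Bcl11b, a zinc finger factor of striatal projection neurons, was 184, 310 and 427 CPM in the positive and 417, 480 and 516 CPM in the negative class. It was lower in 8 of 8 samples at -0.74 ± 0.16 (SE; edgeR adjusted p = 0.173), and 63.8% (interval 48.5% to 77.3%) against 84.5% (interval 79.8% to 88.4%) of cells were positive. Here too the intervals pool cells over samples, cover counting error only and are no test between the classes. Nr2f1, the paralog of Nr2f2, was 8.93, 86.9 and 190 CPM against 50.3, 75.1 and 140 CPM, at -0.09 ± 0.43 (SE; adjusted p = 0.949), and its direction flipped with the scaling. Sox5, a factor of neuron maturation, was higher in 7 of 8 samples at 103, 206 and 352 CPM against 95.2, 123 and 170 CPM, with 0.68 ± 0.26 (SE; adjusted p = 0.446). Isl1, a LIM homeobox factor, had 1 count in the positive class against 683 in the negative class, a CPM ratio of 96.8 (interval 17.3 to 3827), and did not pass the filter. That interval takes each count as independent, while only 22 of the 296 negative cells had an Isl1 count. In single cells 0 of 47 (interval 0% to 7.55%) and 12 of 296 (4.05%, interval 2.11% to 6.97%) were Isl1-positive, and these intervals overlap.

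Nrp1 and Nrp2, semaphorin receptors described as targets of COUP-TFII in developing neurons, did not pass either. Nrp1 was at -3.28 ± 1.28 (SE; edgeR adjusted p = 0.446), with 55.6 CPM in sample 3 and at most 6.86 CPM in the other positive sums. Nrp2 was at -2.06 ± 1.47 (SE; adjusted p = 0.631), though its mean was 16.3 CPM in the positive and 18.4 CPM in the negative class. It was 0, 2.44 and 64.8 CPM against 1.24, 18.2 and 36.7 CPM, and 6.38% against 7.43% of cells were positive. Calcrl and Ramp1 form a receptor for calcitonin gene-related peptide, the transmitter of the parabrachial input to these neurons. Calcrl was lower in 8 of 8 samples, at 0, 1.29 and 19.8 CPM against 3.37, 18.9 and 37.2 CPM, with -3.19 ± 1.22 (SE; adjusted p = 0.440). Ramp1 was 67.4, 172 and 370 CPM against 204, 309 and 378 CPM, with -1.01 ± 0.26 (SE; adjusted p = 0.215), and 31.9% against 67.6% of cells were positive.

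Beyond Nts no member of a gene list passed. Sox5, Stmn2, Ramp1 and the other list members given by unadjusted p were picked after their values were seen. At that p 9.54% of all tested genes were lower and 0.371% higher, the background for these counts. Of 8 tested genes of COUP-TF receptors and cofactors 0 passed, with a median log2 fold change of -0.74 beside -0.50 over all genes, and Bcl11b, Nrp1 and Ncor1 had an unadjusted p under 0.05. Of 12 tested neuropeptide precursor genes 1 passed, namely Nts, which is also the 1 of 3 classical marker genes that passed, with list medians of -1.22 and -6.87. In the 10 tested neuropeptide receptor genes 0 passed, with a median of -1.03. The 17 lateral ganglionic eminence and striatal factors had a median of -0.35, with Sox5 on the higher side and Zfhx4, Pbx3, Rxrg and Dlx6 on the lower side at an unadjusted p under 0.05. The 5 striatal projection neuron genes had a median of -0.93. Among them Ppp1r1b, the DARPP-32 gene, was at least 50 CPM, with a median of 212 and a highest value of 563 CPM against 385, 466 and 575 CPM, at -1.51 ± 0.38 (SE; edgeR adjusted p = 0.215).

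Lists of receptors, channels and surface molecules had 0 genes that passed. The 15 GABA and glycine receptor genes had a median of -0.59 with 5 on the lower side at an unadjusted p under 0.05, beside 9.54% of all tested genes, and 0 passed. Gabrd, the delta subunit of extrasynaptic GABA-A receptors, was lower in 8 of 8 samples at 0, 0.740 and 31.8 CPM against 14.0, 35.7 and 100 CPM, with -4.49 ± 1.24 (SE; edgeR adjusted p = 0.251). The medians were -0.33 for 17 glutamate receptor genes, -0.57 for 24 potassium channel genes and -0.49 for 27 sodium, calcium, HCN and TRP channel genes. They were -1.03 for 26 axon guidance genes, where Efnb3 lay on the higher side, -0.37 for 34 adhesion genes and -0.88 for 6 secreted synapse organizers.

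The remaining neuronal lists had no gene that passed. Their medians were -0.16 for 17 calcium-binding protein genes, -0.29 for 12 general neuron genes and -0.19 for 14 immediate early genes. The summed level of the immediate early genes was 753, 1559 and 2644 CPM in the positive and 996, 1276 and 1629 CPM in the negative class, and it was higher in the positive class in 6 of 8 samples. Medians were -1.23 for 6 protein kinase C genes, -1.18 for 7 retinoic acid genes, -0.53 for 17 growth factor and receptor genes, -0.55 for 7 extended amygdala markers, -0.34 for 5 monoamine, acetylcholine, adenosine and cannabinoid receptors and -0.34 for 5 genes of GABA handling.

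In the marker lists of other cells few genes had enough counts to be tested, and 0 of these passed. Tested were 2 caudal ganglionic eminence and 2 oligodendrocyte genes. The medial ganglionic eminence, excitatory, astrocyte, and endothelial and mural lists had 1 each. None of the intercalated, cholinergic, oligodendrocyte precursor, microglial or ependymal genes was tested, so the test cannot show that the classes are alike. The summed levels of the classes overlapped in each list, and the part of these lists in the Nts result was not tested. The 8 caudal ganglionic eminence interneuron genes in the table summed to 87.3, 149 and 321 CPM in the positive and 174, 197 and 345 CPM in the negative class. Among them Prox1, a defining factor, had 0 counts in the Nr2f2-positive class and 3 in the negative class. The 6 medial ganglionic eminence genes summed to 0, 4.93 and 44.4 CPM against 8.79, 21.9 and 62.1 CPM, with Lhx6 at 0 counts in the positive class and 31 in the negative class. The 4 intercalated cell genes summed to 0, 3.33 and 67.4 CPM against 0.511, 15.9 and 38.7 CPM, and the 6 excitatory genes to 14.6, 41.5 and 101 CPM against 39.3, 63.3 and 113 CPM.

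Oligodendrocyte genes, 8 in the table with Mbp among them, summed to 109, 177 and 296 CPM in the positive and 125, 152 and 217 CPM in the negative class, and Mbp-positive cells were 11 of 47 and 95 of 296. Astrocyte genes, 7 in all, summed to 0, 39.3 and 69.2 CPM against 10.9, 40.5 and 93.9 CPM. The 5 endothelial and mural genes summed to 20.7, 100 and 163 CPM against 60.3, 100 and 131 CPM, with Cldn5 at 0 in both. Of the 5 microglial genes C1qa, C1qb and Cx3cr1 were at 0 in both classes. The 2 cholinergic genes reached 123 CPM in 1 negative sum and 1.92 CPM in the positive class, and 4 negative cells were Chat-positive. Precursor and ependymal genes had a median of 0 CPM in the positive class and under 1 CPM in the negative class. With the Chat-positive cells left out Nts stayed at -6.87 (edgeR adjusted p = 0.00668), an alternative added after the data were seen. With the Mbp-positive cells left out Nts did not pass the filter on low counts.

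To learn which values are particular to Prkcd neurons, the Nr2f2 difference was compared with that in inhibitory neurons without Prkcd, in 1 fit of 4 classes over 8 samples. Of 11148 genes, 2 had a higher (0.0179%) and 2 a lower (0.0179%) log2 fold change in Prkcd neurons at an adjusted p under 0.05, against 217 (1.95%) and 432 (3.88%) at an unadjusted p. DESeq2 called 97 and 150. With Prkcd and Nr2f2 positive at 1 count and 3 or more cells per class, 0 genes passed in either direction over 9 samples. With 1 or more cells per class, which adds sample 1, 0 were higher and 1 was lower, namely Nefm. Both alternatives were added after the data were seen. In the neurons without Prkcd the same Nr2f2 contrast gave 34 higher (0.305%) and 181 lower (1.62%) genes. On simulated counts of this design, with the same floor, 4% of 2-fold and 36% of 4-fold differences were recovered.

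Over the 8 samples Rasgrf1 and Nefm were lower with Nr2f2 in Prkcd neurons by more than in the other neurons, and neither call held with positivity at 1 count. Rasgrf1 was 0, 0.572 and 5.77 CPM in Nr2f2-positive Prkcd neurons and 3.85, 37.9 and 112 CPM in Nr2f2-negative ones. In neurons without Prkcd it was 45.0, 173 and 454 CPM with and 178, 250 and 337 CPM without Nr2f2. The difference of the log2 fold changes was -4.53 ± 0.74 (SE; edgeR adjusted p = 0.00836) and below 0 in 8 of 8 samples. In neurons without Prkcd the log2 fold change was -0.63 ± 0.38 (SE). With sample 1 entered, and with it the 1 cell described above, the difference was -2.52 (adjusted p = 0.541), and with positivity at 1 count it was -0.43 (adjusted p = 0.995). Nefm was 15.8, 128 and 293 CPM with and 219, 351 and 719 CPM without Nr2f2 in neurons lacking Prkcd, far above its levels in Prkcd neurons given before. Its difference was -4.00 ± 0.78 (SE; adjusted p = 0.0355) and below 0 in 8 of 8 samples. With sample 1 entered it was -4.41 (adjusted p = 0.0134), and with positivity at 1 count -1.44 (adjusted p = 0.801).

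Tshz2 and Wfs1 went the other way. Tshz2, a zinc finger homeobox factor, was 104, 182 and 273 CPM in Nr2f2-positive and 109, 184 and 270 CPM in Nr2f2-negative Prkcd neurons, ranges that nearly coincide. In neurons without Prkcd it was 25.2, 41.5 and 131 CPM with and 141, 186 and 239 CPM without Nr2f2, with a log2 fold change of -2.05 ± 0.26 (SE; edgeR adjusted p = 1.34e-05). The difference was 2.10 ± 0.36 (SE; adjusted p = 0.00881) and above 0 in 7 of 8 samples, and without the sample block it was 1.89 (adjusted p = 0.0600). With sample 1 entered it was 1.85 (adjusted p = 0.136), and with positivity at 1 count 0.82 (adjusted p = 0.995).

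Wfs1, which encodes wolframin of the endoplasmic reticulum, was 522, 975 and 1477 CPM with and 948, 1253 and 1384 CPM without Nr2f2 in Prkcd neurons. In neurons without Prkcd it was 138, 248 and 325 CPM with and 470, 676 and 802 CPM without Nr2f2, at -1.54 ± 0.17 (SE; edgeR adjusted p = 6.69e-07), and these classes did not overlap. The difference was 1.19 ± 0.23 (SE; adjusted p = 0.0355) and above 0 in 7 of 8 samples, with sample 1 entered 1.24 (adjusted p = 0.0547), and with positivity at 1 count 0.42 (adjusted p = 0.995). Each of these 4 calls depended on the samples entered. Leaving out 1 sample at a time, Rasgrf1 passed in 5 of 8 fits, Tshz2 in 4, Nefm in 2 and Wfs1 in 1, with adjusted p up to 0.0694, 0.0694, 0.259 and 0.259.

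**Figure D4:**
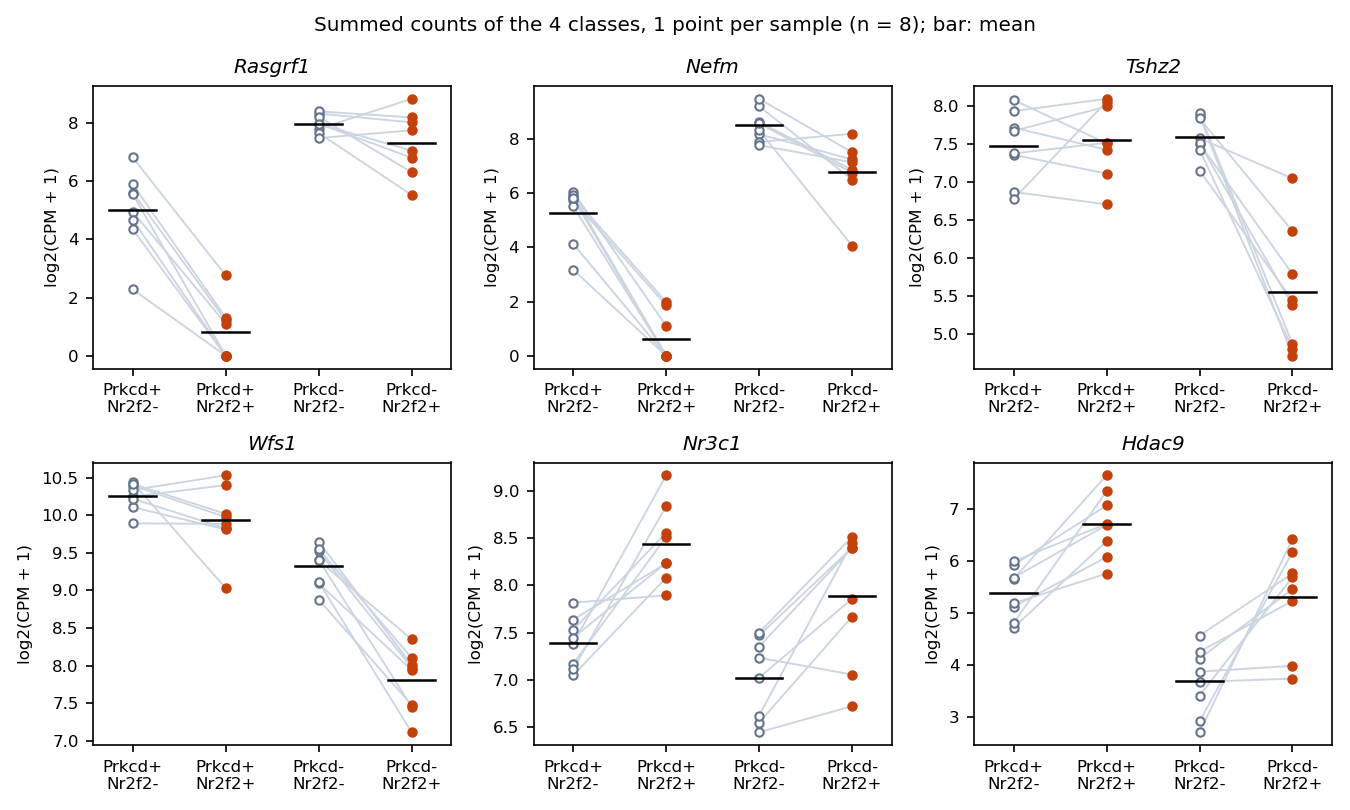
Level of 6 genes as log2(CPM + 1) in the 4 classes of inhibitory neurons, 1 point per sample with lines joining the Nr2f2 classes of a sample and bars at the mean. Tshz2 and Wfs1 are lower with Nr2f2 in the neurons without Prkcd in 8 of 8 samples, and Rasgrf1 is low in Nr2f2-positive Prkcd neurons.

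Nr3c1, Hdac9 and Pcsk1n had higher values with Nr2f2 on both sides. In neurons without Prkcd the log2 fold change of Nr3c1 was 0.85 ± 0.21 (SE; edgeR adjusted p = 0.0211) and that of Hdac9 1.67 ± 0.43 (SE; adjusted p = 0.0333), and both passed there. Pcsk1n passed there too, at 0.43 ± 0.07 (SE; adjusted p = 0.000779), with a difference between the sides of -0.24 ± 0.10 (SE; adjusted p = 0.731). The differences between the sides were 0.16 ± 0.29 (SE) for Nr3c1 and -0.40 ± 0.58 (SE) for Hdac9, with adjusted p of 1.0. Bcl11b was at -1.07 ± 0.17 (SE; edgeR adjusted p = 0.000371) and Pcp4 at -2.86 ± 0.65 (SE; adjusted p = 0.0122) in neurons without Prkcd, so both passed there. Their differences between the sides were 0.33 ± 0.24 (SE) and -1.55 ± 1.01 (SE; adjusted p = 0.994). Nefm (-1.60, edgeR adjusted p = 0.0205), Fam176b (-7.67, 0.00369), Pfkfb3 (-6.27, 0.000684), Malat1 (-0.38, 8.42e-06) and Isl1 (-5.37, 0.0315) also passed lower in neurons without Prkcd. In these neurons Fam176b was 0 CPM in every Nr2f2-positive sum, against a mean of 8.19 CPM without Nr2f2. Pfkfb3 had means of 0.232 CPM with and 16.9 CPM without Nr2f2. The folds of Fam176b and Pfkfb3 thus rest on values at or near 0 and are not measured sizes. Nefl, Rasgrf1, Pxmp3 and Topbp1 did not pass there. For Fam176b, Pfkfb3, Malat1 and Isl1 the difference between the sides did not pass. For Nts the value without Prkcd was -3.55 ± 1.48 (SE; adjusted p = 0.333) and the difference -2.33 ± 1.97 (SE; adjusted p = 1.0), so the Nts result was not shown to be particular to Prkcd neurons. In neurons without Prkcd other neuropeptide genes passed lower with Nr2f2. Cartpt was at -3.40 ± 0.87 (SE; edgeR adjusted p = 0.0441) there, with a difference between the sides of 3.15 ± 1.13 (SE; adjusted p = 0.651). Crh had a mean of 0.234 CPM with and 110 CPM without Nr2f2 in these neurons. The log2 fold changes without Prkcd were -9.48 ± 1.35 (SE) for Crh, -6.10 ± 0.81 (SE) for Pdyn, -4.54 ± 0.80 (SE) for Sst and -6.91 ± 1.17 (SE) for Tac2. Their edgeR adjusted p were 8.31e-05, 3.44e-05, 0.00279 and 0.002. The differences between the sides did not pass, at 3.37 ± 1.84 (SE) for Crh, 2.22 ± 1.15 (SE) for Pdyn, 1.14 ± 1.18 (SE) for Sst and 0.71 ± 1.74 (SE) for Tac2, with adjusted p of 0.92, 0.893, 1.0 and 1.0.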

How the data were processed

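Single-cell counts were taken per gene symbol and cell from the table the authors deposited, which holds 22601 genes and 91 spike-ins for 829 cells of 9 samples. Per the submitters' processing notes the genome was NCBIM37 and Seurat was among the tools. Which aligner, annotation and strand setting were used, and whether molecular identifiers were collapsed, was not given, so intervals cover counting error only. Spike-ins were left out of gene counts. Library totals per class and sample were 176409 to 874569 counts for Nr2f2-positive and 3115963 to 7938767 for Nr2f2-negative Prkcd neurons. Of 376 well barcodes 368 occurred in more than 1 sample, and 0 pairs of cells were identical. No doublet caller was run and no cell was removed for low counts.

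For samples with 3 or more cells in each class, raw counts were added up within the class and tested with edgeR 4.0.16 (TMM, filterByExpr, robust quasi-likelihood fit, sample as block) in R 4.3.3. Adjusted p-values are Benjamini-Hochberg values over all genes, called under 0.05. The classes are cells of the same samples, which is why the sample is a block, and their deviations correlated by -0.02 to 0.07 over 4171 genes. Fold changes come from this fit and differ from ratios of mean CPM. For Nts, Crh, Nefl and Pdyn they were larger in size than those ratios. The means were 6.92 against 81.7 CPM for Nefl and 8.97 against 98.5 CPM for Pdyn. The fits were tested on simulated data. The aim in naming genes was up to 12 per direction of those that passed, with a mean of at least 10 CPM and the same direction in every sample, then filled by smallest p and reported as not passing. Up to 2 passing members of each list, a set of markers whatever their result, and up to 5 genes per direction for the difference between contrasts were added. The 33 lists hold 531 genes, of which 513 matched as written, 3 by an older symbol and 15 did not match. The members and lists were chosen with earlier results of these data known. Alternatives were DESeq2 1.42.0, median-of-ratios scaling, no block, no filter, other thresholds and cell numbers, thinning to 50000 counts (seed 7), leaving out cells or samples, and sums per animal number or date field. Tables and exact tests used scipy 1.17.1, pandas 2.3.3 and numpy 2.4.6 in Python 3.11.15, and plots used matplotlib 3.10.9.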

Additional observations from a re-analysis of the deposited data

Results flagged for a closer look

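In 5 of 44 sets of per-sample values examined for a sample far from the others (Dixon's test, which by chance marks about 1 in 20), 1 sample stood apart. The sets are differences in log2(CPM + 1) between the Nr2f2 classes of Prkcd neurons. Crh had its highest difference at 5.43 in sample 4, where the other samples were below 0. Fam176b had its highest difference at -2.01 and Pxmp3 at -0.94. Nr2f1 had its lowest difference at -2.80, in sample 5, and Wfs1 at -1.41, in sample 6. Rasgrf1, Tshz2, Nefm and Wfs1 differed in their Nr2f2 contrast between neurons with and without Prkcd by the test of that difference (-4.53, 2.10, -4.00 and 1.19 on the log2 scale), and 0 of these 4 passed with positivity at 1 count. Spike-in counts, outside the main measurement, gave a log2 ratio of gene counts per spike-in count of -0.18 between the Nr2f2-positive and Nr2f2-negative Prkcd neurons.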

How the results depend on the processing

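Among single-gene values under all alternatives, 742 kept direction and side of the threshold, 46 newly passed, 35 no longer passed and 27 reversed. Genes called higher, 0 in the fit reported, numbered 23 with DESeq2, 1 without the replicate block and 2 with positivity at 1 count. Genes called lower, 1 in that fit, numbered 630, 9 and 14 there, 2 without the filter and 10 with 1 or more cells per class. They were 0 with counts thinned, 5 or more cells per class, equal cell numbers, cells positive for Mbp or for the classical markers left out, and sums per animal number or date field. Leaving out 1 sample gave 0 to 3 lower and 0 higher in each fit. Without the replicate block Nts was at -4.10 (edgeR adjusted p = 0.664). For the difference between contrasts, DESeq2 called 97 higher and 150 lower, no replicate block 1 higher, positivity at 1 count 0 higher and 0 lower, 1 or more cells per class 0 higher and 1 lower, and leaving out 1 sample gave 0 to 3 in each direction. Gene counts per cell had a log2 ratio of -0.11 with positivity at 1 count (exact permutation p = 0.0117), and -0.17 to -0.082 leaving out 1 sample, and per spike-in count -0.22 to -0.15 (exact permutation p = 0.0313 to 0.0625). Positivity at 3 counts per 10000 left 0 samples and no value.

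None of the reversed values passed the test. Topbp1 was at 0.13 and Tshz2 at -0.69 with positivity at 1 count, and Tshz2 at -0.023 without the filter, -0.052 thinned, -0.15 with 1 or more cells and -0.12 to 0.14 leaving out 1 replicate (below 0 without replicate 9). Nr2f1 was at 0.013 with median-of-ratios scaling, 0.019 with DESeq2, 0.24 without the block, 0.80 with positivity at 1 count, 0.37 and 0.18 with 5 or 1 cells per class and 1.54 with equal cell numbers. It was at 0.13 and 0.14 without Mbp or classical-marker cells, 0.53 and 0.49 per animal number or date field, and -0.26 to 0.23 leaving out 1 replicate (above 0 without replicate 5 or 6). Penk was at 0.083 with equal cell numbers. Cartpt was at 0.089 without the block, 0.028 with positivity at 1 count, 0.32 with 5 cells per class, 0.21 without Mbp cells, 0.080 per animal number, and -0.57 to 0.22 leaving out 1 replicate (above 0 without replicate 4 or 6). The cause was not tested. With 47 cells and the recovery given for simulated counts, changes of 2-fold go mostly unseen.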

Other observations

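With Prkcd and Nr2f2 called positive at 1 count the classes held 160 and 338 cells over 9 samples, and 2 genes were higher (0.0189%) and 14 lower (0.132%) with Nr2f2 (edgeR adjusted p under 0.05). The higher genes were Ncald, a neuronal calcium sensor gene, at 0.78 on the log2 scale, and Myh7, a myosin heavy chain gene, at 1.24. The lower genes included Arpp21 (-1.79), a phosphoprotein gene of striatal neurons, Mpped1 (-1.84), Crym (-1.25) and Chga (-0.70), the chromogranin A gene of dense-core vesicles. Nefl (-1.66), Nefm (-2.03), Pcp4 (-2.40) and Crh (-5.70) were also among them, genes that were lower without passing at the higher threshold. Nts was at -3.64 (adjusted p = 0.189) in that comparison. Genes named here were picked after their values were seen.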
